A study of Mus musculus with 2 samples.

Results

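A set of 9 genes that make, carry, degrade and sense retinoic acid were followed in the midbrain of mouse embryos at E12.5. They were the synthesis enzymes Aldh1a1, Aldh1a2 and Aldh1a3, the binding proteins Crabp1 and Crabp2, the degrading enzyme Cyp26b1 and the receptors Rara, Rarb and Rarg. All 9 were found among the 43346 quantified genes by matching gene identifiers to symbols in GENCODE M21, and they held 26 of the 103639 quantified transcripts. The members were listed by name, with earlier results of these data known. Total RNA had been sequenced in 2 libraries from embryos of the strain B6NCrl, of mixed sex, for which the labels name no allele and no treatment. Replicate 1 was a pool of 120 embryos and replicate 2 a separate pool of 88 embryos, both of midbrain tissue taken 12.5 days into development. Both libraries belong to 1 group, so there is no contrast of conditions. The levels are described within the tissue, and the pools are set against each other as replicate 1 over replicate 2.

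Retinoic acid is a small signalling molecule made from vitamin A. Retinol dehydrogenases oxidise retinol to retinal, and the ALDH1A enzymes turn retinal into retinoic acid. In the cell it is carried by CRABP proteins, cleared by CYP26 enzymes, and sensed by the nuclear receptors RARα, RARβ and RARγ, which bind DNA as partners of retinoid X receptors. In the embryonic nervous system the pathway is best known for patterning the hindbrain and spinal cord and for promoting neuronal differentiation. Aldh1a2 is also known from the meninges around the brain, and Aldh1a1 from dopaminergic neurons of the ventral midbrain.

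Depth was 29430493 estimated counts in replicate 1, with 28212923 of them on genes, and 37381984 in replicate 2, with 36082643 on genes. The markers of the labelled tissue were present. All 6 midbrain genes of the list had a mean of at least 1 TPM, led by Otx2, which measured 147 TPM in replicate 1 and 142 in replicate 2, and by Pax3, which measured 43.2 and 51.1 TPM. Of 7 hindbrain genes only Gbx2 reached that level, and Hoxb4 was listed at 0 in both libraries. All 9 forebrain genes of the list reached it too. The forebrain list summed to 142 TPM in replicate 1 and 100 TPM in replicate 2, against 215 and 223 TPM for the midbrain list. How much forebrain tissue the pools held was not tested. TPM (an abundance per effective length, scaled to the whole library) allows genes of different length to be set side by side. The log2 scale used below for ratios between the pools comes from normalised counts. A difference was called where a two-sided exact binomial test gave a Benjamini-Hochberg adjusted p below 0.05, the ratio reached 1.5-fold and the mean was at least 1 TPM. That test covers counting error only and compares these 2 libraries.

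The 9 genes spanned more than 3 orders of magnitude, with the carriers at the top and the synthesis enzymes at the bottom. In mean level over the 2 libraries the order was Crabp1, Crabp2, Rara, Rarg, Rarb, Cyp26b1, Aldh1a2, Aldh1a3 and Aldh1a1. At each step the lower of the 2 values of 1 gene lay above the higher value of the next, except among the 3 receptors, whose values overlapped and whose order differed between the pools. Of the 9 genes, 7 were at 1 TPM or more in both libraries. All 9 were measured lower in replicate 1, as were 50.3% of all 18939 tested genes.

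**Figure D1:**
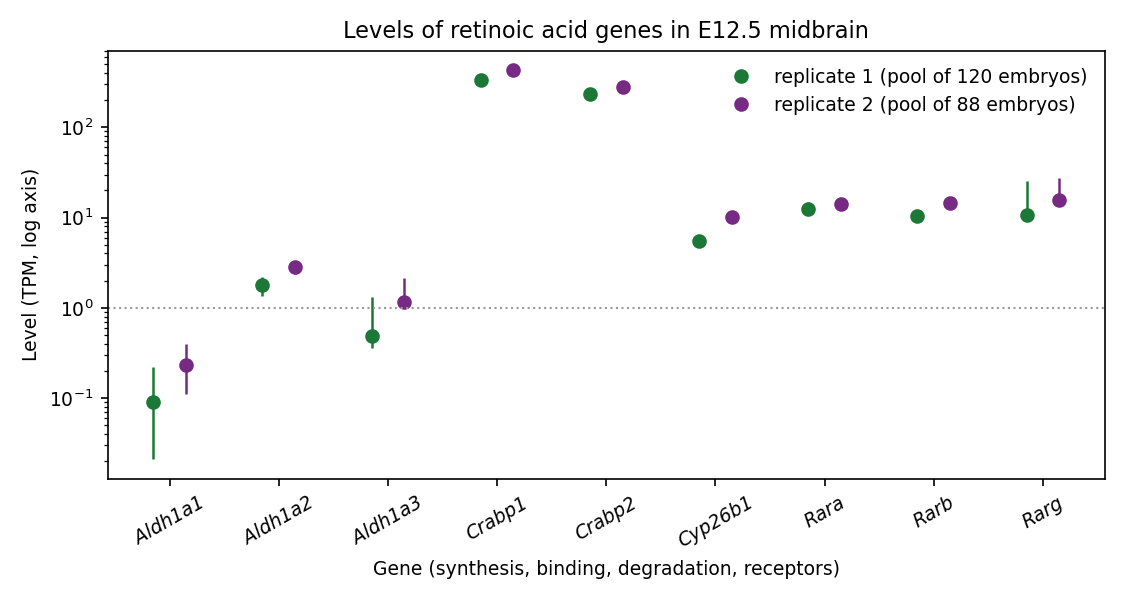
Deposited level of each gene in TPM (log axis) in replicate 1 (green, left) and replicate 2 (purple, right), with the deposited TPM interval as a vertical line; the dotted line marks 1 TPM. Crabp1 and Crabp2 stand far above the receptors, which lie between 10.35 and 15.8 TPM, and the ALDH1A genes lie lowest.

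The synthesis enzymes were scarce, and Aldh1a2 was the most abundant of them. Aldh1a2 (ENSMUSG00000013584.5, mm10 chromosome 9, 71215789 to 71296243, plus strand) is the main retinoic acid source of the early embryo. It had 1.8 TPM in replicate 1, from 69 estimated counts, and 2.85 TPM in replicate 2, from 138 counts, a mean of 2.33 ± 0.742 TPM (SD, n = 2). The deposited TPM intervals, 1.36 to 2.19 in replicate 1 and 2.34 to 3.27 in replicate 2, did not overlap. The level was called lower in replicate 1, with a log2 ratio of -0.63 (95% interval -1.07 to -0.2) and an adjusted p of 0.0178 in the exact binomial test. The call was lost with the overdispersion between the libraries included, where edgeR's exact negative binomial test gave an adjusted p of 0.559. In bulk tissue, fewer cells of a type and less RNA per cell cannot be told apart. Beside this difference, all 9 genes of the meningeal mesenchyme list were lower in replicate 1 as well, by log2 ratios of -0.49 to -0.16. None reached the 1.5-fold needed for a call, but all except Foxd1 and Twist1 passed the exact binomial test at an adjusted p below 0.05. The summed level of the list was 1110 TPM in replicate 1 and 1570 TPM in replicate 2. The part of the mesenchyme in the difference of Aldh1a2 was not tested.

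Aldh1a3, the ALDH1A enzyme of the eye and the ventral forebrain (ENSMUSG00000015134.10, chromosome 7, 66390890 to 66427517, minus strand), had 0.49 TPM in replicate 1 and 1.15 TPM in replicate 2, from 13 and 54 counts. Its mean of 0.82 ± 0.467 TPM (SD, n = 2) was under the 1 TPM needed for a call, though it was 1.18 TPM with posterior mean TPM and 1.03 TPM when TPM was rescaled over protein-coding genes. The log2 ratio was -1.64 (95% interval -2.68 to -0.79), with an adjusted p of 0.000406 in the exact binomial test and 0.0369 in edgeR's exact negative binomial test. With posterior mean TPM the ratio shrank to -0.93, and the deposited intervals of 0.362 to 1.33 TPM and 0.992 to 2.16 TPM overlapped. Of the 6 eye markers 1 reached a mean of 1 TPM, and their summed level was 3.45 TPM in replicate 1 and 4.87 TPM in replicate 2. The 9 forebrain markers ran the other way, with a median log2 ratio of 0.47 and 4 of them called higher in replicate 1.

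Aldh1a1 (ENSMUSG00000053279.6, chromosome 19, 20492715 to 20643465, plus strand) was close to the detection limit. It had 3 counts in replicate 1 and 10 in replicate 2, or 0.09 and 0.23 TPM, a mean of 0.16 ± 0.099 TPM (SD, n = 2). With so few counts the log2 ratio of -1.22 had a 95% interval from -3.87 to 0.59, and the exact binomial test gave an adjusted p of 0.357, so no difference was detectable at this depth. Most genes of the dopaminergic list, whose neurons are a known site of Aldh1a1, were well above it. Of those 8 genes 7 reached a mean of 1 TPM, while Slc6a3 had 0.15 TPM in replicate 1 and 0.59 TPM in replicate 2. The summed level of the 8 was 86.3 TPM in replicate 1 and 121 TPM in replicate 2, and Th and Foxa2 were called lower in replicate 1. Together the 3 ALDH1A genes summed to 2.38 TPM in replicate 1 and 4.23 TPM in replicate 2, of which Aldh1a2 gave 75.6% and 67.4%. Of 21461 nuclear protein-coding genes, 56.0% were more abundant than Aldh1a2, 62.7% than Aldh1a3 and 70.6% than Aldh1a1.

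The binding proteins were among the most abundant messages of the tissue. Crabp1 (ENSMUSG00000032291.8, chromosome 9, 54764748 to 54773110, plus strand), a cytosolic carrier of retinoic acid, had 337 TPM in replicate 1 and 430.4 TPM in replicate 2, from 4195 and 6778 counts. Its mean of 384 ± 66.2 TPM (SD, n = 2) put it at rank 287, with 1.33% of the protein-coding genes above it. Crabp2 (ENSMUSG00000004885.5, chromosome 3, 87948666 to 87953376, plus strand), the family member known to deliver retinoic acid to the receptors in the nucleus, had 235 TPM in replicate 1 and 277 TPM in replicate 2, from 3449 and 5155 counts. Its mean was 256 ± 29.8 TPM at rank 520, with 2.42% above. Crabp1 exceeded Crabp2 in both pools, by 1.44 times in replicate 1 and 1.56 times in replicate 2.

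Both carriers were lower in replicate 1 by small margins that the depth nonetheless resolved. The log2 ratio was -0.32 for Crabp1 (95% interval -0.38 to -0.27, exact binomial test, adjusted p = 2.33e-28). For Crabp2 it was -0.21 (95% interval -0.27 to -0.15, exact binomial test, adjusted p = 9.27e-10). Neither reached the 1.5-fold needed for a call. With the overdispersion between the libraries included, edgeR's exact negative binomial test gave adjusted p-values of 0.953 for Crabp1 and 1 for Crabp2, but its dispersion was estimated from these same libraries, so it cannot show whether ratios of this size are ordinary between pools. The deposited intervals were 316 to 336 TPM in replicate 1 and 410 to 430 TPM in replicate 2 for Crabp1, and 220 to 235 and 262 to 277 TPM for Crabp2. The TPM of Crabp1 lay just above its own interval in each library. The longest run of bases shared by the main transcripts of Crabp1 and Crabp2 was 11, so reads of the pair can be told apart.

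The degrading enzyme Cyp26b1 was lower in replicate 1 in each test that was run. Cyp26b1 (ENSMUSG00000063415.8, chromosome 6, 84571414 to 84593908, minus strand), a cytochrome P450 that clears retinoic acid, had 5.48 TPM in replicate 1 and 10.1 TPM in replicate 2, from 449 and 1046 counts, a mean of 7.8 ± 3.28 TPM (SD, n = 2). The deposited intervals of 4.85 to 5.83 TPM and 9.28 to 10.5 TPM were apart. It was called lower in replicate 1, with a log2 ratio of -0.85 (95% interval -1.01 to -0.69) and an adjusted p of 4.56e-25 in the exact binomial test. In edgeR's exact negative binomial test its adjusted p was 0.00606, and it was the only one of the 9 genes called there, since Aldh1a3, which also passed that test, was under the 1 TPM threshold. The mesenchyme markers given above moved the same way, with a median log2 ratio of -0.37, and so did the 4 epidermal markers, with a median of -0.53 and a summed level of 13.4 TPM in replicate 1 and 18.9 TPM in replicate 2. No gene of these 2 lists was called, as none reached 1.5-fold. All except Foxd1, Twist1, Krt14 and Trp63 nonetheless passed the exact binomial test at an adjusted p below 0.05. The dopaminergic list had the same median as the mesenchyme list, with 6 of 7 genes at a mean of at least 1 TPM lower and 2 called. The part of these lists in the difference of Cyp26b1 was not tested.

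The other CYP26 enzymes were barely present. Cyp26a1 had 0.37 TPM in replicate 1 and 0.16 TPM in replicate 2, from 11 and 6 counts. Cyp26c1 had 0 counts in both libraries, and a count of 0 allows up to 3 counts in each. Cyp26b1 was thus the 1 CYP26 gene at 1 TPM or more. Its level was 2.3 times the ALDH1A sum in replicate 1 and 2.39 times in replicate 2, so that ratio of degrading to synthesis messages was nearly alike in the pools although both sides of it were lower in replicate 1.

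The 3 receptors were present at like levels. Rara (ENSMUSG00000037992.12, chromosome 11, 98927818 to 98974942, plus strand), the most widely expressed receptor, had 12.5 TPM in replicate 1 and 14.2 TPM in replicate 2, from 573 and 815 counts, a mean of 13.4 ± 1.25 TPM (SD, n = 2). Its log2 ratio of -0.14 had a 95% interval of -0.3 to 0.02, with an adjusted p of 0.213 in the exact binomial test. Among the 7 genes at a mean of at least 1 TPM it was the only one whose interval included 0, and that interval still holds a difference as large as -0.3.

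Rarg (ENSMUSG00000001288.10, chromosome 15, 102234938 to 102257517, minus strand), known best from skin, cartilage and other mesenchymal tissue, had 10.7 TPM in replicate 1 and 15.8 TPM in replicate 2, from 427 and 891 counts, a mean of 13.3 ± 3.61 TPM (SD, n = 2). It was called lower in replicate 1, with a log2 ratio of -0.69 (95% interval -0.86 to -0.52) and an adjusted p of 4.28e-15 in the exact binomial test. Its deposited intervals were wide and overlapped, at 9.62 to 25.2 TPM in replicate 1 and 14.9 to 27.2 TPM in replicate 2. Both reach far above the deposited value. With posterior mean TPM (15.6 in replicate 1 and 19.6 in replicate 2) the log2 ratio shrank to -0.33, and in edgeR's exact negative binomial test the adjusted p was 0.0673. Beside it, the mesenchyme and epidermis lists were lower in replicate 1 in all 9 and all 4 genes. None of these reached 1.5-fold, so none was called. The dopaminergic list was lower in 6 of 7 genes at a mean of at least 1 TPM, with 2 called. The part of these lists in the difference of Rarg was not tested.

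Rarb (ENSMUSG00000017491.8, chromosome 14, 16430839 to 16819156, minus strand), the receptor gene that retinoic acid itself is known to induce, had 10.35 TPM in replicate 1 and 14.6 TPM in replicate 2, from 538 and 957 counts, a mean of 12.5 ± 2.98 TPM (SD, n = 2). The log2 ratio was -0.46 (95% interval -0.62 to -0.31, exact binomial test, adjusted p = 4.89e-08), short of 1.5-fold, and the deposited intervals of 9.2 to 10.9 TPM and 13.3 to 15.1 TPM were apart. A neighbour on the opposite strand limits these values. In GENCODE M21 exons of Top2b, a DNA topoisomerase gene with 167 TPM in replicate 1 and 145 in replicate 2, cover 1793 of the 3108 bases of the Rarb transcript. The main Top2b transcript was quantified at a length of 5660 bases, against 10335 bases in M21, and 1505 of the 3009 windows of 100 bases in Rarb occur in the longer form on the other strand. The strand setting of the counting was not given in the sources used here, so reads from the end of Top2b and from Rarb cannot be told apart. The level of Rarb may hold reads of Top2b, and Top2b itself ran the other way between the pools, with a log2 ratio of 0.25 (exact binomial test, adjusted p = 3.43e-53).

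The promoter of Rarb holds the classic response element to which its own product binds, a direct repeat of core hexamers 5 bases apart. It is shown because it is the sequence by which Rarb serves as a readout of retinoic acid. In the RefSeq windows of GRCm38.p6, which run from 250 bases before to 50 bases after each gene start, it lies 53 to 37 bases upstream of the start at 16575476, within chr14:16575507-16575535 on the minus strand. The quantified transcript, Rarb-201, is annotated in GENCODE M21 to start at 16575543 on the same strand, so by that start the repeat lies downstream. That transcript was quantified at a length of 3034 bases, against 3108 bases in M21. Whether the repeat lies inside the measured form is therefore not known. Capitals mark the hexamers.
Rarb: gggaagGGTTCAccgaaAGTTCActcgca
Hexamers were searched as AGGTCA, as AGTTCA, as GGGTCA and as GGTTCA on both strands, and the repeats overlap with single hexamers by construction. A repeat with a spacing of 5 was found in 32 of all 32851 windows (0.0974%), one with a spacing of 1 in 0.222% and one with a spacing of 2 in 0.268%. A single hexamer was found in 43.7%. RefSeq windows were matched for 7 of the 9 genes, 12 windows in all, and Crabp2 and Aldh1a3 were not matched. No window of Aldh1a1, Aldh1a2, Crabp1, Cyp26b1, Rara or Rarg held any of the 3 repeats, which says only that these letters are not in those windows. Single hexamers were found in 1 window of Aldh1a1, in 2 of the 4 windows of Rara, where 1 window held 4, in 1 of 2 windows of Rarg and 3 times in the window of Rarb. Of the 12 windows, 9 had a GC content above the median of all windows, 52.7%, and Aldh1a2 was highest at 78.0%.

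Summed over the families, carriers exceeded receptors and receptors exceeded synthesis enzymes in both pools. The CRABP pair summed to 571 TPM in replicate 1 and 707 TPM in replicate 2, and the receptors to 33.5 and 44.6 TPM. The CRABP sum was 17.0 times the receptor sum in replicate 1 and 15.8 times in replicate 2, and the receptor sum was 14.1 and 10.6 times the ALDH1A sum. The receptors shared their sum almost evenly, with the limit on Rarb given above. Rara gave 37.2% in replicate 1 and 31.9% in replicate 2, Rarb 30.9% and 32.6%, and Rarg 32.0% and 35.5%. The leading receptor was thus Rara in replicate 1 and Rarg in replicate 2, and with posterior mean TPM it was Rarg in both.

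**Figure D2:**
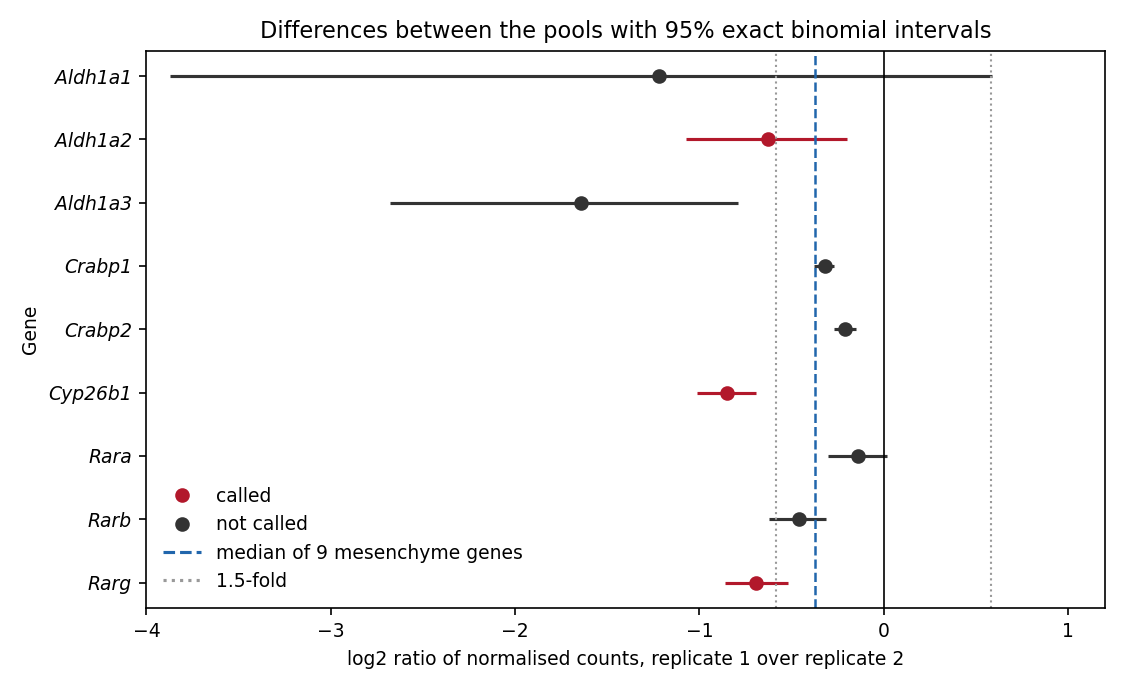
Log2 ratio of normalised counts, replicate 1 over replicate 2, for each gene (points) with 95% exact binomial intervals (lines); red points were called, dotted lines mark 1.5-fold and the dashed line the median of 9 mesenchyme genes, -0.37. All 9 points lie left of 0, and Aldh1a2, Cyp26b1 and Rarg are the called genes.

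Counted over the set, 3 of the 7 genes at a mean of at least 1 TPM were called lower in replicate 1 and 0 were called higher. Among all 15199 genes at that level 2.14% were called lower in replicate 1, and 3.55% were called in either direction. Without the thresholds on ratio and level, 7 of the 9 genes were lower and passed the exact binomial test at the adjusted threshold of 0.05, against 10.8% of the 18939 genes tested. The deposited TPM intervals lay apart for 5 of the 7 genes, against 10.8% of all genes at that level that were lower in replicate 1 with intervals apart. In edgeR's exact negative binomial test 1 of the 7 was called, against 0.711%. The median log2 ratio was -0.63 over the 9 genes and -0.46 over the 7, against a median of 0.00 over all genes. These counts describe 9 named genes in 2 libraries, and genes that share a cell type do not vary independently.

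Several lists of tissue markers differed between the pools beside them. In replicate 1, 9 of 9 mesenchyme, 4 of 4 epidermal, 5 of 6 endothelial and 5 of 6 midbrain genes at a mean of at least 1 TPM were lower, with median log2 ratios of -0.37, -0.53, -0.2 and -0.24. The dopaminergic list had 6 of 7 genes lower and a median of -0.37, the same as the mesenchyme list, with 2 called lower. The mesenchyme list was led by Col3a1, with 399 TPM in replicate 1 and 569 in replicate 2, and Col1a1, with 326 and 469 TPM. The endothelial sum was 142 TPM in replicate 1 and 164 TPM in replicate 2. For forebrain genes the median was 0.47, with 1 of 9 lower, which was called, and 4 called higher. Neuron and progenitor lists were close to even, with medians of 0.11 and 0.13 and summed levels of 1770 and 2720 TPM in replicate 1 against 1680 and 2730 TPM in replicate 2. The choroid plexus list had 2 of 4 genes lower and a median of 0.62, with Ttr and Kcne2 called higher and Aqp1 called lower. Its summed level was 50.6 TPM in replicate 1 and 30.9 TPM in replicate 2, of which Ttr alone gave 38.7 and 13.8 TPM. On the same threshold of 1 TPM, the median ratio of the 7 retinoic acid genes was -0.46, and the ratios of Crabp1, Crabp2 and Rara lay between the mesenchyme median and 0. How far these tissues enter the retinoic acid genes was not tested.

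Which transcripts carried the genes differed in kind between the receptors. Aldh1a1, Aldh1a2, Crabp1 and Rarb each had 1 quantified transcript, and for Crabp2 the coding transcript Crabp2-201 took 99.2% in replicate 1 and 99.8% in replicate 2 of the deposited isoform percent. Rara was carried by 3 of its 7 transcripts. Rara-203 (ENSMUST00000107474.3, starting at 98927818) took 46.6% in replicate 1 and 33.8% in replicate 2, or 5.81 and 4.82 TPM. Rara-204 (ENSMUST00000107475.4, starting at 98937698) took 18.9% and 38.3%, or 2.35 and 5.45 TPM, and Rara-202 (ENSMUST00000107473.2, starting at 98960412) 34.5% and 27.9%, or 4.3 and 3.97 TPM. The top transcript was thus Rara-203 in replicate 1 and Rara-204 in replicate 2, and these share 1 annotated coding sequence (CCDS36304). The intervals of Rara-204 overlapped between the pools, at 0.949 to 3.7 TPM in replicate 1 and 3.44 to 7.67 TPM in replicate 2. Within replicate 1 the interval of Rara-203 (3.48 to 6.95 TPM) overlapped that of Rara-202 (3.23 to 4.86 TPM). Within replicate 2 the interval of Rara-204 overlapped that of Rara-203 (1.94 to 6.51 TPM). The top transcript was thus not resolved in either library. Added up by coding sequence, the CCDS36304 form held 65.5% in replicate 1 and 72.1% in replicate 2, and the form with the downstream start (Rara-202, CCDS48905) the rest. Of 7056 genes at a mean of at least 10 TPM with more than 1 transcript, 6.42% had a different top transcript in the libraries, and of the 3 retinoic acid genes of that kind, Crabp2, Rara and Rarg, only Rara had one.

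Rarg was split between a pair of coding forms with separate start sites. Rarg-201 (ENSMUST00000043172.10, CCDS27875, starting at 102257517) took 42.7% in replicate 1 and 47.3% in replicate 2, or 4.58 and 7.49 TPM. Rarg-202 (ENSMUST00000063339.9, CCDS37226, starting at 102246500) took 33.2% and 42.7%, or 3.56 and 6.76 TPM. Each form was measured lower in replicate 1, as was the gene, and the deposited intervals lay apart for Rarg-202 (2.32 to 4.88 and 5.18 to 8.19 TPM) and overlapped narrowly for Rarg-201 (2.79 to 5.76 and 5.74 to 8.65 TPM). Rarg-205 took 16.01% in replicate 1 and 2.15% in replicate 2, and Rarg-204 8.12% and 7.83%. A further transcript, Rarg-206, is annotated over 111 bases and had an effective length of 12. It was listed at 0% in both libraries, yet posterior means gave it 29.1% in replicate 1 and 18.5% in replicate 2, with intervals up to 13.6 and 10.8 TPM. The part of this short transcript in the wide intervals of the Rarg gene level was not tested.

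Both transcripts of Cyp26b1 encode the same annotated protein (CCDS20289), so its difference between the pools concerns 1 product. Cyp26b1-202 (ENSMUST00000168003.4, starting at 84593908) took 60.1% in replicate 1 and 74.5% in replicate 2, or 3.3 and 7.54 TPM, with intervals of 1.63 to 4.52 and 5.19 to 8.61 TPM. Cyp26b1-201 (ENSMUST00000077705.3, starting at 84593746) took 39.9% and 25.4%, or 2.19 and 2.58 TPM, with overlapping intervals of 0.833 to 3.63 and 1.36 to 4.63 TPM. The intervals were thus apart for Cyp26b1-202 alone. Aldh1a3 was divided over 3 of 5 transcripts at levels too low to rank. Aldh1a3-203 took 47.0% in replicate 1 and 50.1% in replicate 2, Aldh1a3-201 21.2% and 40.3%, and the retained-intron form Aldh1a3-202 31.9% and 9.6%, from at most 34.8 counts for any of them in a library.

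**Figure D3:**
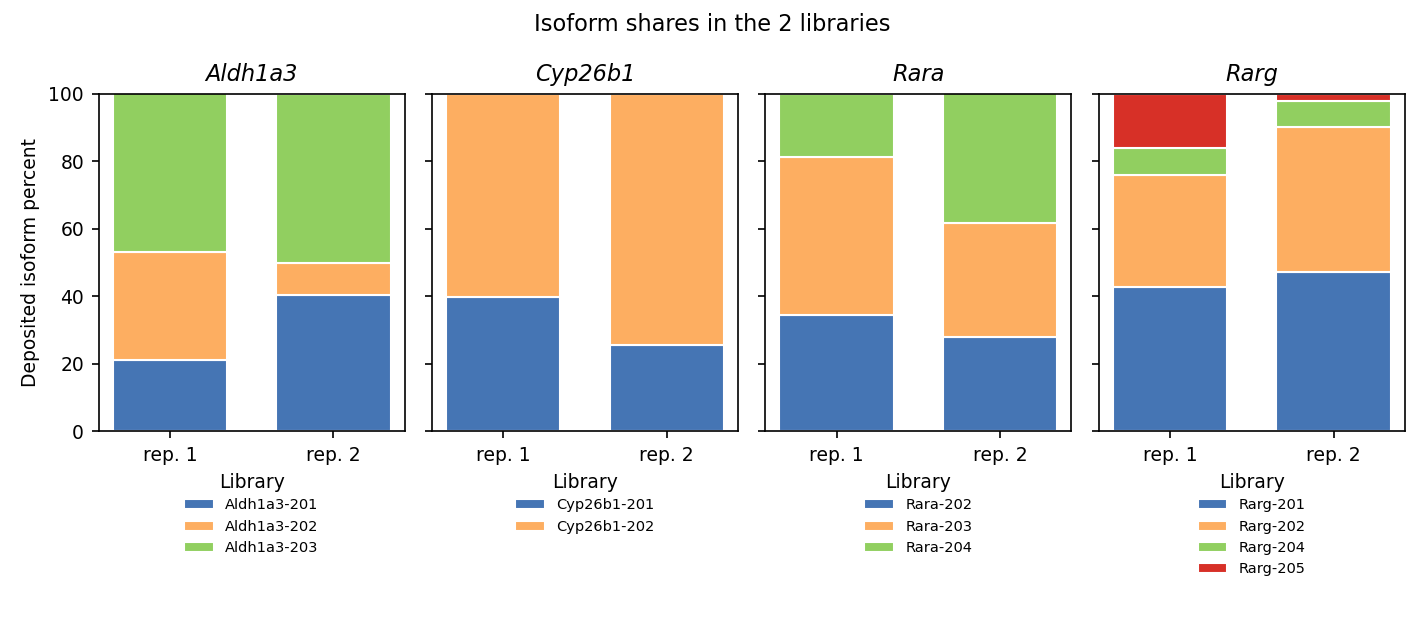
Deposited isoform percent of each transcript above 0 for Aldh1a3, Cyp26b1, Rara and Rarg, as stacked bars with replicate 1 left of replicate 2. Rara-204 holds 18.9% of Rara in replicate 1 and 38.3% in replicate 2, while Cyp26b1-202 and Rarg-201 lead their genes in both libraries.

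Sequence shared with other genes was a minor limit apart from Rarb. Among 100-base windows of the annotated transcripts, on the same strand, 1 of 1954 windows of Aldh1a1 also occurs in Aldh1a7 and 1 of 4601 of Aldh1a3 in Casc4, and none of the other 7 genes shared any. No window was shared between the 9 genes. The longest run shared by main transcripts within a family was 24 bases, between Rara and Rarg, and 21 bases among the ALDH1A enzymes, between Aldh1a2 and Aldh1a3.

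Of 39 other genes of the pathway, 26 were at a mean of at least 1 TPM, and 1 of these was called lower in replicate 1 and 2 higher. Their median log2 ratio was 0.00, with 11 of 26 lower in replicate 1 by rounded log2 ratios. Adh5 and Ncor1, at ratios of 0.998 and 0.997, round to 0.00 and are not in that count. Retinoid X receptors, the partners of the RARs on DNA, were led by Rxrb with 53.7 TPM in replicate 1 and 55.0 in replicate 2, or 86.6% and 83.9% of the RXR sum. Rxra had 6.7 TPM in replicate 1 and 7.84 TPM in replicate 2. Rxrg had 1.6 and 2.71 TPM and was called lower in replicate 1 (log2 ratio -0.72, exact binomial test, adjusted p = 0.0153). The RXR sum was 1.85 times the RAR sum in replicate 1 and 1.47 times in replicate 2.

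On the supply side, most detected retinol dehydrogenases were at levels above the ALDH1A enzymes. Rdh10, which makes the retinal that the embryo's retinoic acid comes from, was at 7.63 TPM in both libraries. Dhrs3, a reductase that returns retinal to retinol, had 7.85 TPM in replicate 1 and 11.2 TPM in replicate 2 (log2 ratio -0.47, exact binomial test, adjusted p = 0.00194, under 1.5-fold). Of the 14 genes of conversion and storage 9 reached a mean of 1 TPM and none was called. Adh5, mostly a formaldehyde-clearing enzyme, was highest with 189 TPM in replicate 1 and 194 in replicate 2, Rdh11, Rdh13, Rdh14 and Dhrs4 lay between 22.6 and 26.1 TPM, and Rdh5 and Rdh12 were at 13.4 and 1.7 TPM in replicate 1 and at 13.4 and 1.5 TPM in replicate 2. Dhrs9 was listed at 0, and Lrat and Bco1, which store and supply retinoids in other tissues, were under 0.2 TPM.

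Among genes of retinol uptake and transport, the serum carriers differed most. Ttr, the thyroxine and retinol carrier protein that the choroid plexus secretes, had 38.7 TPM in replicate 1 and 13.8 TPM in replicate 2, and was called higher in replicate 1 (log2 ratio 1.52, exact binomial test, adjusted p = 1.95e-62). Rbp4, the serum retinol-binding protein, had 3.74 and 1.4 TPM and was called higher as well (log2 ratio 1.44, exact binomial test, adjusted p = 0.000175). Ttr is itself on the choroid plexus list, and the part of that tissue in both was not tested. The retinol receptor Stra6 had 7.3 and 7.1 TPM.

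**Figure D4:**
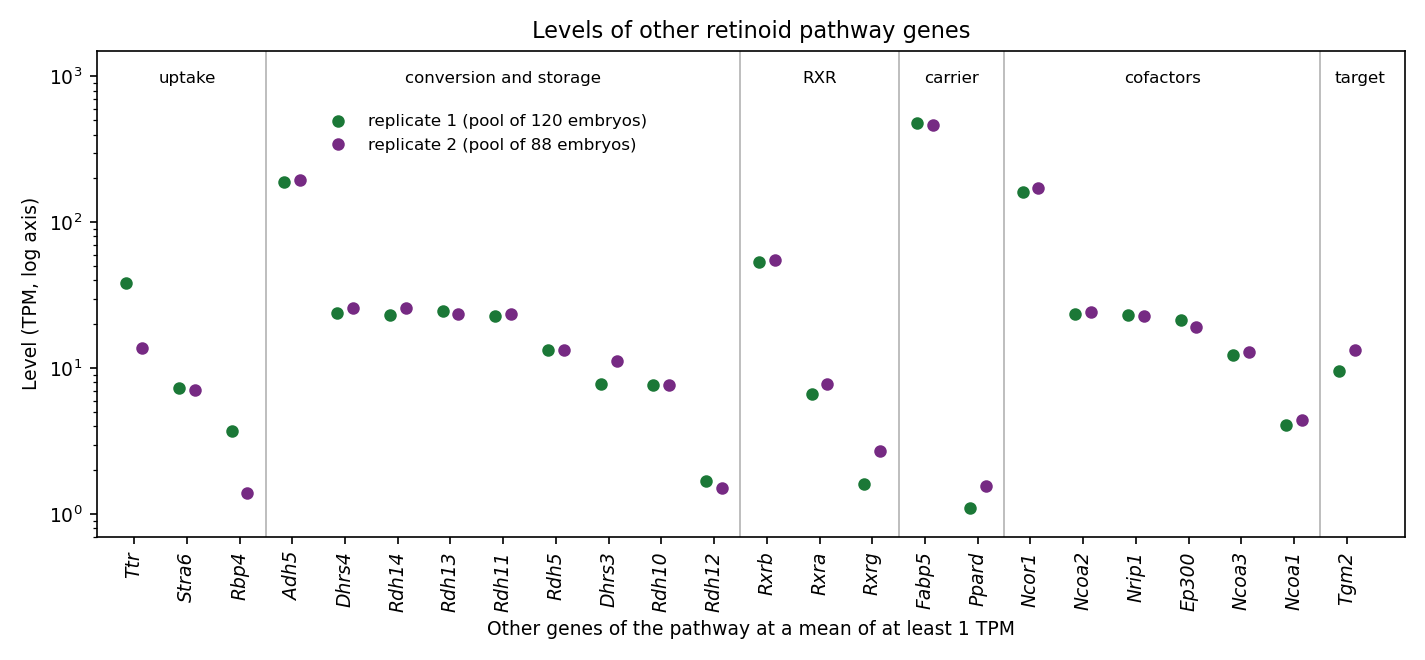
Deposited level in TPM (log axis) of 24 other pathway genes at a mean of at least 1 TPM, with replicate 1 (green) left of replicate 2 (purple) and lines between the gene lists; a gene on 2 lists is drawn once, so Tgm2 stands alone as a target gene. The log2 ratios of cofactors run from -0.07 to 0.17, Dhrs3 is lower in replicate 1 (7.85 TPM, against 11.2 TPM in replicate 2), and Ttr and Rbp4 are higher in replicate 1.

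A different carrier, Fabp5, can pass retinoic acid to the receptor PPARδ. Fabp5 had 478 TPM in replicate 1 and 465 TPM in replicate 2, or 1.42 and 1.08 times the level of Crabp1, while Ppard, the gene of that receptor, had 1.1 and 1.55 TPM. The RAR corepressors and coactivators were all detected. Ncor1 was highest with 161 TPM in replicate 1 and 172 in replicate 2, and Ncoa1, Ncoa2, Ncoa3, Ep300 and Nrip1 lay between 4.1 and 24.4 TPM. None of the 7 cofactors on the list was called, and their log2 ratios ran from -0.07 to 0.17.

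Genes known to respond to retinoic acid elsewhere in the embryo gave no call in either direction. Of the 9 on the list, 4 reached a mean of 1 TPM, Tgm2, Dhrs3 and Nrip1 among them, and 3 of the 4 were lower in replicate 1. Tgm2, a transglutaminase, had 9.62 TPM in replicate 1 and 13.4 TPM in replicate 2 (log2 ratio -0.43, exact binomial test, adjusted p = 1.11e-07, under 1.5-fold). Hoxb1 and Stra8 were at or under 0.1 TPM, and Cdx1 was listed at 0 in both libraries.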

How the data were processed

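The authors deposited, per the file headers, expected counts (estimated counts that need not be whole), TPM with a posterior mean TPM and the bounds of a TPM interval whose level is not stated, and an isoform percent for each transcript. The deposited values were made from transcriptome alignments on mm10 with GENCODE M4, per the file headers, and the aligner, its version and the strand setting were not given in the sources used here. Libraries were made from 10 ng of RNA over 200 nt, per the labels' protocols. The linked manual is of a SMARTer Ultra Low kit.

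Names and coordinates came from GENCODE M21, which matched 42462 of 43346 genes. Spike-ins (4.14% of counts in replicate 1, 3.48% in replicate 2) and 26248 short features entered neither library sizes nor tests, but TPM includes them. Expected counts were rounded. TMM factors (edgeR 4.0.16, R 4.3.3) were 0.995 and 1.005. Genes with at least 10 summed counts entered a two-sided exact binomial test (scipy 1.17.1, Python 3.11.15) with Benjamini-Hochberg adjustment over 18939 genes. Log2 ratios had 0.5 counts added. Intervals (95%) and the limit that 0 counts allow (3 counts) cover counting error only. The edgeR exact negative binomial test used a coefficient of variation of 0.0939, estimated from these same libraries, so real differences between pools add to it. The exact binomial test was tried on simulated counts that held counting error only, so that check does not cover variation between pools. Alternatives were DESeq2 1.42.0 size factors, total counts, other minimums and folds, posterior mean TPM, TPM over protein-coding genes and non-overlapping TPM intervals, the last added after seeing the data. Every one of the 9 genes was named. In the lists, genes at a mean of at least 1 TPM were named or counted (a few are not reported here by name and remain in the counts), and transcripts were named where top in a library or at 10% or more in both. Aldh1a3-202, Rarg-204, Rarg-205 and Rarg-206 fall outside that rule and were named after their values were seen. The genes and lists were chosen with earlier results of these data known.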

Additional observations from a re-analysis of the deposited data

How the results depend on the processing

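The 3 calls, Aldh1a2, Cyp26b1 and Rarg, stayed the same genes with DESeq2 size factors, total counts, a minimum of 1 summed count and a minimum of 50. At 2-fold 0 of the 9 genes were called, and in edgeR's exact negative binomial test 1, Cyp26b1. With non-overlapping TPM intervals 2 were called, Aldh1a2 and Cyp26b1, and at a mean of at least 0.1 TPM 4, adding Aldh1a3. Over all genes 539 were called, against 213 at 2-fold, 835 at 0.1 TPM, 201 in the negative binomial test and 288 with intervals apart. No direction reversed. Of 36 alternative log2 ratios, 1 fell outside the 95% interval of the ratio as reported (Rarg, -0.33 with posterior mean TPM). Aldh1a3 shifted further, to -0.93 with posterior mean TPM, inside its wide interval. Of 36 alternative levels 5 differed by at least 1 SD, Rarg to 17.6 TPM with posterior means and, rescaled over protein-coding genes, Crabp1 to 484, Crabp2 to 323, Rara to 16.9 and Rarb to 15.7 TPM. The level of Aldh1a3 passed 1 TPM in both, at 1.18 and 1.03. The top share moved by at least 1 SD for Rarg (32.1%) and Aldh1a3 (31.9%) with posterior means. The alternative levels and shares include those from 1 library alone. With 2 libraries these always lie less than 1 SD from the mean, so only the other settings could show a shift. No paired analysis was possible because both libraries belong to 1 group. Leaving out a library leaves no ratio between pools. Depth limits Aldh1a1 and Aldh1a3, which rest on at most 10 and 54 counts in a library.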
